A study of Mus musculus with 24 samples.

Results

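The genes of the integrin receptors and of the laminins were followed in mouse embryonic stem cells (ESCs) with and without TET enzymes, before and after withdrawal of leukemia inhibitory factor (LIF). Members were taken by name alone, from the symbols of the count tables that read Itga with a number or letter, Itgb with a digit, or Lama, Lamb or Lamc with a digit. The 36 genes described here, of 22926 symbols, were 18 alpha integrins, 8 beta integrins and 10 laminin chains. Polyadenylated RNA was sequenced in 24 libraries, each from 1 clone. Every clone, WT included, came from 1 parental clone of a 129/SVj derived ESC line with eGFP inserted at the Pou5f1 (Oct4) locus behind an internal ribosome entry site, and the Tet genes were disrupted with CRISPR guides. WT and Tet1-/- had 3 libraries a day, whereas Tet2-/-, the double knockout DKO (lacking Tet1 and Tet2) and the triple knockout TKO (lacking Tet3 as well) had 2 each. At D0 cells grew undifferentiated on gelatin without feeder cells and with LIF, and at D6 they had been without LIF for 6 days. Clones recur between the days, except that Tet1-/- clone 2.3 was sequenced at D0 and clone 2.2 at D6 in its place. All genotypes are subclones of a single line, so the errors below measure the spread between subclones.

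Integrins are cell surface receptors made of an alpha and a beta chain that bind the extracellular matrix outside the cell and, through talin, kindlin and integrin-linked kinase, the actin cytoskeleton inside it. Laminins are trimers of an alpha, a beta and a gamma chain, and they are the first scaffold of the basement membrane, the thin matrix sheet under epithelia that early embryonic cells also lay down. The Lama1, Lamb1 and Lamc1 chains form the classical laminin of the early embryo, Lama5 joins the same Lamb1 and Lamc1 chains in another trimer, and Lama3 and Lamb3 belong to the epidermal laminin that is held by Itga6 with Itgb4 in hemidesmosomes. TET enzymes oxidise the methyl group of 5-methylcytosine, which in mammals lies mostly in CG dinucleotides. ESCs are often grown on laminin and hold on to it mainly through Itga6 with Itgb1.

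Because CG dinucleotides are where TET enzymes act, the 250 bases before the start site are shown for 6 members on which the results turn, with every CG in capitals. The first group, Lama5, Lamb1 and Itgb1, were abundant chains whose levels were higher at D6 in WT, and held 19, 14 and 21 CG dinucleotides. The second group, Lamb3, Lamb2 and Itgam, differed between Tet2-/- and WT at D6, and held 2, 3 and 6. The groups were not exclusive, since Lamb3 was also higher at D6 in WT and the change of Lama5 between days differed between Tet2-/- and WT. Sequences are those of RefSeq on GRCm38.p6, a later build than the mm9 on which the reads were counted, and read 5′ to 3′ on the strand of the gene. For Lamb3 the first of its listed starts is shown.
Lama5 (chr2:180225860-180226109, minus strand): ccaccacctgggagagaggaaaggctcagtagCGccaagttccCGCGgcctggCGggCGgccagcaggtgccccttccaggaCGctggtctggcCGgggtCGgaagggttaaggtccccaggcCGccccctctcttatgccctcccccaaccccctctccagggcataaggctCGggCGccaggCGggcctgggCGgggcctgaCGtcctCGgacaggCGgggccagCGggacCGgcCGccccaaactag
Lamb1 (chr12:31265043-31265292, plus strand): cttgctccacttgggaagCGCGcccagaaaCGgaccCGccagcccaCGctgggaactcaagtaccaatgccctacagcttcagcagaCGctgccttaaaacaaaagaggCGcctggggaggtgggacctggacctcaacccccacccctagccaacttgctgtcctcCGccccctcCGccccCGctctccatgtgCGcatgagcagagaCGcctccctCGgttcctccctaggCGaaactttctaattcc
Itgb1 (chr8:128685404-128685653, plus strand): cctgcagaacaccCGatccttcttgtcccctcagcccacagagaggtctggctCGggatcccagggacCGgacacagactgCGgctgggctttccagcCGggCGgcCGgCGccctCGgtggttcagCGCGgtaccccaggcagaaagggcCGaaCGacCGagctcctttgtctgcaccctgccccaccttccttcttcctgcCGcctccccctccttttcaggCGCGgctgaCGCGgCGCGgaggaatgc
Lamb3 (chr1:193301744-193301993, plus strand): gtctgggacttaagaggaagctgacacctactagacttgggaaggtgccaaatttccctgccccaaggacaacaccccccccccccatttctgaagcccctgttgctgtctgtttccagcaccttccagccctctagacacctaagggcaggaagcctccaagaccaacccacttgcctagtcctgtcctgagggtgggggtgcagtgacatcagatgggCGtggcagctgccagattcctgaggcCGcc
Lamb2 (chr9:108479612-108479861, plus strand): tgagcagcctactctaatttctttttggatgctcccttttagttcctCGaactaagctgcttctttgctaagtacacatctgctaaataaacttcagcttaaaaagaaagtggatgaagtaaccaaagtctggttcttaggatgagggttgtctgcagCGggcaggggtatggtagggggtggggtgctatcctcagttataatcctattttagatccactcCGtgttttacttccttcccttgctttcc
Itgam (chr7:128062390-128062639, plus strand): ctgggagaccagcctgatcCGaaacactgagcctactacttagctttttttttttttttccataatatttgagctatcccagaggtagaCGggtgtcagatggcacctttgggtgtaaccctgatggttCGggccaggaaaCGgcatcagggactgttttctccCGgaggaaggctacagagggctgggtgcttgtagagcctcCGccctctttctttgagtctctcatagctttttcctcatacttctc
Over all 32851 listed promoters the median was 6 CG in this window, with 37.8% at 10 or more and 49.6% at 5 or fewer. Entries existed for 23 of the 36 members (26 promoters), whose median was 10, with 14 promoters at 10 or more and 10 at 5 or fewer. Both kinds of promoter were found among members that differed in Tet2-/-: Itga8 and Itga11 held 18 and 12 CG, and Itga2b and Itgb7 held 2 and 5. No methylation was measured in these libraries, so the CG counts are given as sequence features. The study measured methylation at D0 separately, by reduced representation bisulfite sequencing, and reported that promoter changes did not correlate with expression. Those data were not used here.

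Levels are given as CPM, the counts of a gene relative to those of its library, after TMM scaling over all libraries, and totals were 21729346 to 37290208 counts at D0 and 18400463 to 34219640 at D6. A count of 3 was worth 0.0805 to 0.163 CPM, which limits what a count of 0 can show and covers counting error only. The members took 0.1498% to 0.198% of counts at D0 and 0.204% to 0.296% at D6. Tet2 RNA stood at 87.9 to 94.0 CPM in WT and 20.9 to 23.2 CPM in Tet2-/- at D0, but at 12.3 to 16.0 and 15.9 to 16.6 CPM at D6, and Tet1 RNA in Tet1-/- (93.4 to 358.3 CPM at D0) overlapped WT (220.4 to 430.7 CPM). Transcripts with a short indel are still counted, so RNA does not check the genotype labels. The 9 markers of pluripotent cells summed to 4825 to 5619 CPM over the D0 libraries, against 11.4 to 41.5 CPM for 15 markers of extraembryonic endoderm, so the D0 libraries carried the RNA of the labelled cell type. The 2 TKO clones stood apart from each other at D0, with 111 and 184 CPM of Lamb1 and 35.9 and 9.81 CPM of Itga9 in replicates 1 and 2. In bulk RNA, fewer cells of a type and less RNA per cell cannot be told apart.

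In undifferentiated WT cells the most abundant members per length of transcript were Itgb1, the beta chain shared by most matrix receptors, and Lamc1, the gamma chain shared by most laminins, at 67.1 and 63.8 CPM per kb (means of 3 libraries). Among the other receptors Itga6 (24.1), Itga3 (16.5), Itga5 (15.3) and Itgb5 (13.5 CPM per kb) came next, which are 2 chains of laminin receptors, the alpha chain of the fibronectin receptor and a partner of Itgav. Among laminin alpha chains, Lama1 held 53% to 56.5% and Lama5 40.0% to 45.1% of the CPM per kb in the WT libraries, and Lama2, Lama3 and Lama4 shared the rest. Lamb1 held 64.8% to 67.6% of the beta chains. Itgb7, a leukocyte chain that pairs with Itga4 and Itgae, stood at 10.9 CPM per kb, beside 3.21 for Itgav. Of the blood markers in WT at D0, Ptprc (CD45) averaged 0.0269 CPM, and the blood transcription factors Gata1, Tal1, Runx1 and Spi1 averaged 2.72, 2.28, 0.921 and 0.543 CPM. At the other end, Itgax had no count in any library, Itgad had counts in 1 library, and Itga2 and Itgb6 stayed under 0.4 CPM in all 24. These 4 genes were too low to be tested across days.

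**Figure D1:**
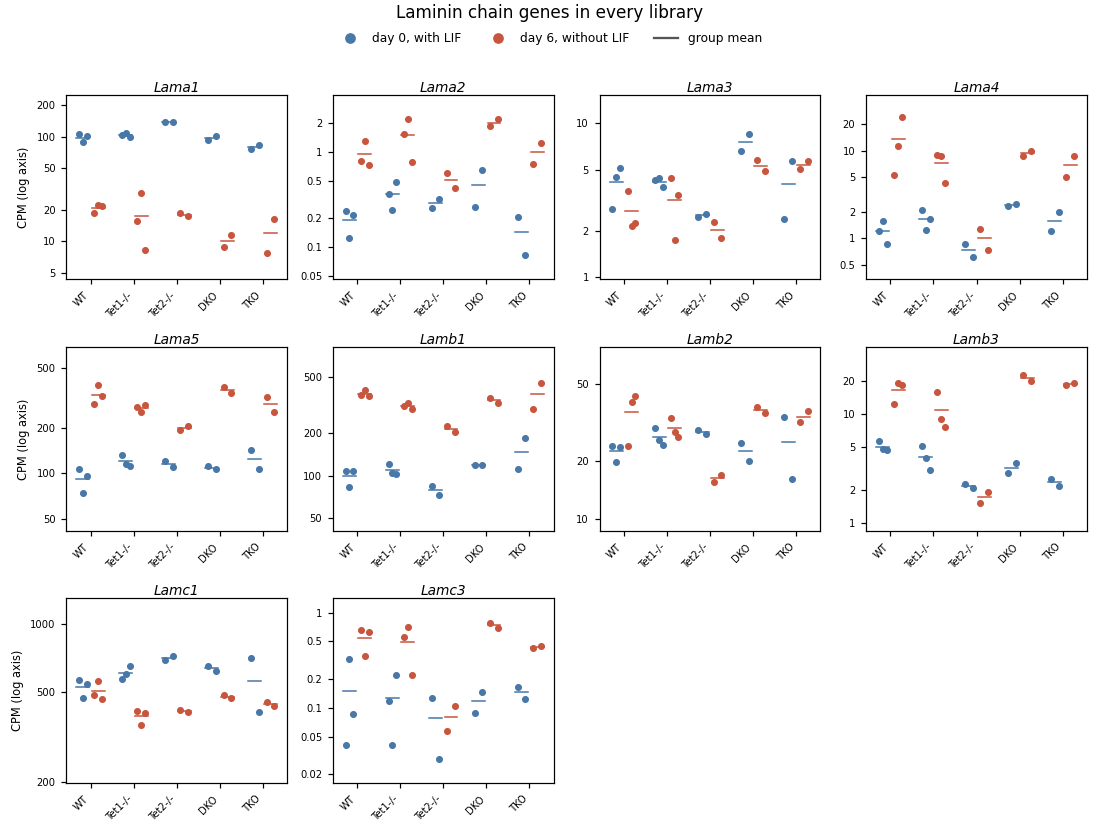
Expression of 10 laminin chain genes in all 24 libraries, in CPM on a log axis, by genotype, with D0 in blue, D6 in red and a bar at each group mean. Lama1 fell and Lamb1 rose in all 5 genotypes. At D6 both Tet2-/- libraries lay under every other D6 library for Lama2, Lama4, Lama5, Lamb1, Lamb2, Lamb3 and Lamc3, an order whose share over all genes was not counted. EdgeR called 4 of the 10 chains lower in Tet2-/- than in WT at D6, against 9.45% of all genes.

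The question of the day comparison was which members changed when WT cells left the pluripotent state. In WT the laminin alpha chain Lama1 fell and Lama5 rose, and Lama4 and Lama2 rose from low levels. Among receptors the collagen receptor Itga11, the Itga8 chain and the beta chains Itgb2, Itgb5 and Itgb8 rose, while the leukocyte chains Itgal, Itgam, Itgae and Itgb7 fell. In all, 14 of 32 tested members were called higher and 6 lower, and over all 15639 genes 20.7% were called higher and 13.3% lower. To be called, a gene had to change more than 2-fold with an adjusted p under 0.05 in edgeR's quasi-likelihood test. By class, 5 of 15 tested alpha chains were called higher and 4 lower, 3 of 7 beta chains higher and 1 lower, and 6 of 10 laminin chains higher and 1 lower. The median log2 fold change was 1.78 for laminin chains and 0.01 for all genes.

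Lama1 (chr17:68046605-68171985 in mm9) had 104, 88 and 100.1 CPM in the WT libraries at D0 and 18.7, 22.4 and 21.9 CPM at D6. The days did not overlap, and the log2 fold change was -2.22 ± 0.29 (SE; adjusted p = 3.00e-06, edgeR). Lama5 (chr2:179911078-179960564) moved the other way, from 107, 74.6 and 96.3 CPM to 287, 384 and 324 CPM, a log2 fold change of 1.84 ± 0.14 (SE; adjusted p = 3.57e-09, edgeR). Lama4 (chr10:38685321-38829994), the alpha chain of blood vessels and mesenchyme, rose from 1.21, 1.56 and 0.864 CPM to 5.34, 11.4 and 24 CPM. All D6 values exceeded all D0 values, but the WT clones at D6 were spread widely, with replicate 3 (clone O4.13) highest, and the log2 fold change was 3.48 ± 0.46 (SE; adjusted p = 2.99e-06, edgeR), or 2.80 without that library. Lama2, the alpha chain of muscle, rose from 0.242, 0.123 and 0.216 CPM to 0.799, 1.31 and 0.732 CPM, a log2 fold change of 2.24 ± 0.49 (SE; adjusted p = 5.37e-04, edgeR). Lama3, the epidermal alpha chain, was not called, with a log2 fold change of -0.62 ± 0.33 (SE; adjusted p = 0.106, edgeR).

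The beta chains Lamb1 and Lamb3 rose as well. Lamb1 (chr12:31950099-32014509), the partner of both Lama1 and Lama5, went from 108, 83.7 and 109 CPM to 368, 401 and 366 CPM, with no overlap and a log2 fold change of 1.92 ± 0.16 (SE; adjusted p = 1.60e-08, edgeR). Lamb3 (chr1:195128151-195170072), the epidermal beta chain, went from 5.61, 4.77 and 4.62 CPM to 12.2, 19.2 and 18.1 CPM, a log2 fold change of 1.72 ± 0.24 (SE; adjusted p = 6.47e-06, edgeR). Lamb2, a beta chain of kidney glomeruli and of the neuromuscular junction, was not called (0.68 ± 0.22, adjusted p = 0.0106, edgeR). The gamma chain Lamc1 showed 568, 473 and 544 CPM at D0 and 485, 561 and 468 CPM at D6, which overlapped, with a log2 fold change of -0.06 ± 0.14 (SE; adjusted p = 0.692, edgeR). Lamc3 rose, at levels under 0.7 CPM, by 1.84 ± 0.59 (SE; adjusted p = 0.0106, edgeR) on the log2 scale, and without WT D0 replicate 1 its adjusted p was 0.0575, while without WT D0 replicate 2 its change was 3.06. The calls thus fell on alpha and beta chains and on the scarce Lamc3, and the abundant gamma chain Lamc1 was not called.

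Per length, the composition of the alpha chains differed between the days in every library. Lama1 made up 38.2% to 59.4% of alpha chain CPM per kb at D0 and 2.66% to 11.4% at D6, and Lama5 made up 39.3% to 60.2% and 84.4% to 94%, so the days did not overlap in any genotype. Within WT the Lama5 to Lama1 ratio per kb was 0.707 to 0.851 at D0 and 12.4 to 14.3 at D6. In Tet2-/- it was 0.661 to 0.745 at D0 and 8.79 to 9.89 at D6, below all WT libraries at D6. In DKO it reached 24.8 to 35.1 at D6, above all WT libraries, while the Tet1-/- libraries (7.41 to 28.8) lay on both sides of the WT range, and of the TKO libraries 1 lay within it (13.2) and 1 above it (34.5). These shares are descriptions and were not tested.

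**Figure D2:**
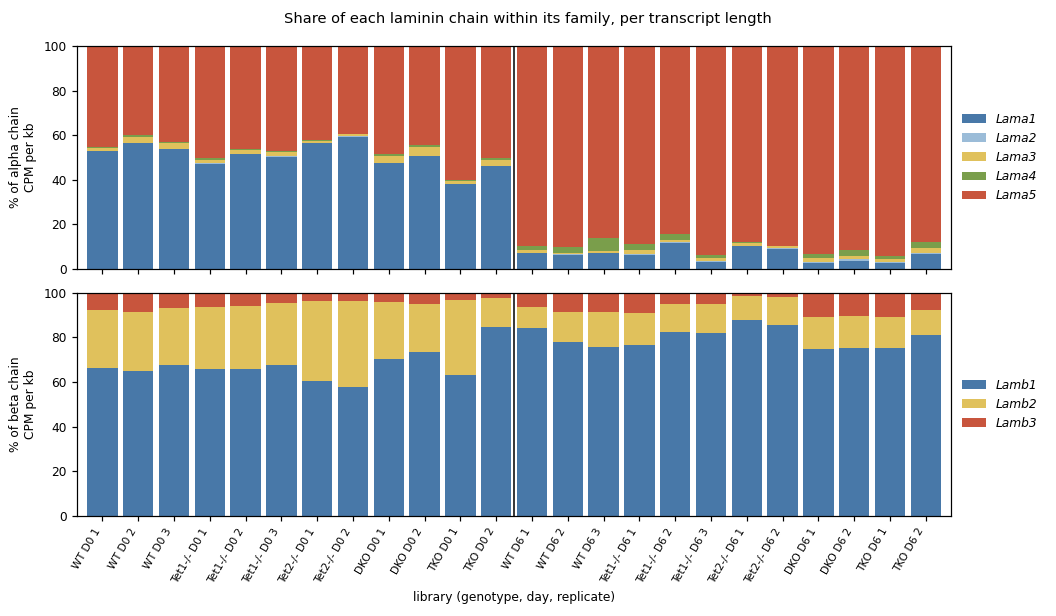
Share of each laminin chain in its family, in percent of CPM per kb of transcript, for the alpha chains (top) and the beta chains (bottom) in the 24 libraries, with the D0 libraries left of the line and the D6 libraries right of it. Lama1 held 38.2% to 59.4% of the alpha chains at D0 and 2.66% to 11.4% at D6, and Lamb3 was lowest at D6 in Tet2-/-.

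Among receptors in WT the largest falls were those of Itgb7 and Itgal, which were nearly equal on the log2 scale. Itgb7 (chr15:102046426-102062366) went from 29.8, 28.7 and 31.4 CPM to 4.14, 1.66 and 2.2 CPM, a log2 fold change of -3.47 ± 0.25 (SE; adjusted p = 2.14e-09, edgeR). Its partner Itgae, which with Itgb7 binds E-cadherin, went from 4.16, 5.97 and 5.44 CPM to 2.72, 1.01 and 1.72 CPM (-1.49 ± 0.26, adjusted p = 5.89e-05, edgeR). Itgal and Itgam, which in leukocytes pair with Itgb2, fell as well, Itgal from 9.65, 11.1 and 13.5 CPM to 1.89, 0.353 and 0.796 CPM (-3.45 ± 0.35, adjusted p = 1.37e-07, edgeR). Itgam went from 4.81, 5.56 and 4.32 CPM to 0.907, 0.202 and 0.637 CPM (-3.01 ± 0.40, adjusted p = 3.07e-06, edgeR). Their usual partner moved the opposite way, since Itgb2 rose from 0.0404, 0.165 and 0.173 CPM to 1.13, 0.908 and 1.11 CPM (3.03 ± 0.63, adjusted p = 3.34e-04, edgeR). None of these genes overlapped between the days, and replicate 1 was the highest of the WT D6 libraries for Itgb7, Itgae, Itgal and Itgam. Without it the change of Itgal was -4.23. Of the blood markers in WT at D6, Ptprc averaged 0.0227 CPM, Gata1 1.86, Tal1 1.35 and Spi1 0.253 CPM, of which Ptprc was too low to be tested and the others were not called between the days, whereas Runx1 rose to 5.79 CPM (2.64 ± 0.39, adjusted p = 9.67e-06, edgeR). Itga9, which binds tenascin and VCAM1, fell too (-1.37 ± 0.29, adjusted p = 3.95e-04, edgeR).

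Itga8 (chr2:12028259-12223547), which with Itgb1 binds nephronectin and fibronectin, rose from 0.727, 0.946 and 0.864 CPM to 5.15, 15 and 15.6 CPM in WT, a log2 fold change of 3.81 ± 0.48 (SE; adjusted p = 1.50e-06, edgeR). The collagen receptor chain Itga11 rose from 0.121, 0.288 and 0.0432 CPM to 0.617, 1.51 and 1.15 CPM, a change of 2.79 ± 0.51 (SE; adjusted p = 9.52e-05, edgeR), or 3.62 without WT D0 replicate 2. Itgb8, the partner of Itgav that releases active TGF-beta from its latent complex, was near 0 at D0. It had 4 counts over the WT D0 libraries and 223 over the WT D6 libraries, a ratio of 51.1 after scaling to library totals multiplied by their TMM factors. The exact 95% counting interval of this ratio was 19.7 to 189.2. The log2 fold change of Itgb8 was 5.56 ± 0.87 (SE; adjusted p = 3.71e-05, edgeR), or 6.78 without WT D0 replicate 1. Itgb5, another partner of Itgav, rose from 42.7, 43.6 and 49.6 CPM to 91.6, 137 and 136 CPM (1.42 ± 0.17, adjusted p = 6.45e-07, edgeR), and Itgav itself rose too (1.08 ± 0.21, adjusted p = 1.68e-04, edgeR). Itga2b (CD41), the platelet chain, rose (1.16 ± 0.37, adjusted p = 0.0109, edgeR), but by less than 2-fold without WT D6 replicate 1 or replicate 3 (0.95 and 0.99 on the log2 scale). Itga4, which binds fibronectin and VCAM1, rose in WT (1.44 ± 0.37, adjusted p = 0.00218, edgeR). Itgb1, the main beta chain, had 294, 278 and 249.6 CPM at D0 and 433, 599.8 and 573 CPM at D6, which did not overlap. Its log2 fold change of 0.97 ± 0.17 (SE; adjusted p = 5.01e-05, edgeR) lay just under the 2-fold limit.

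**Figure D3:**
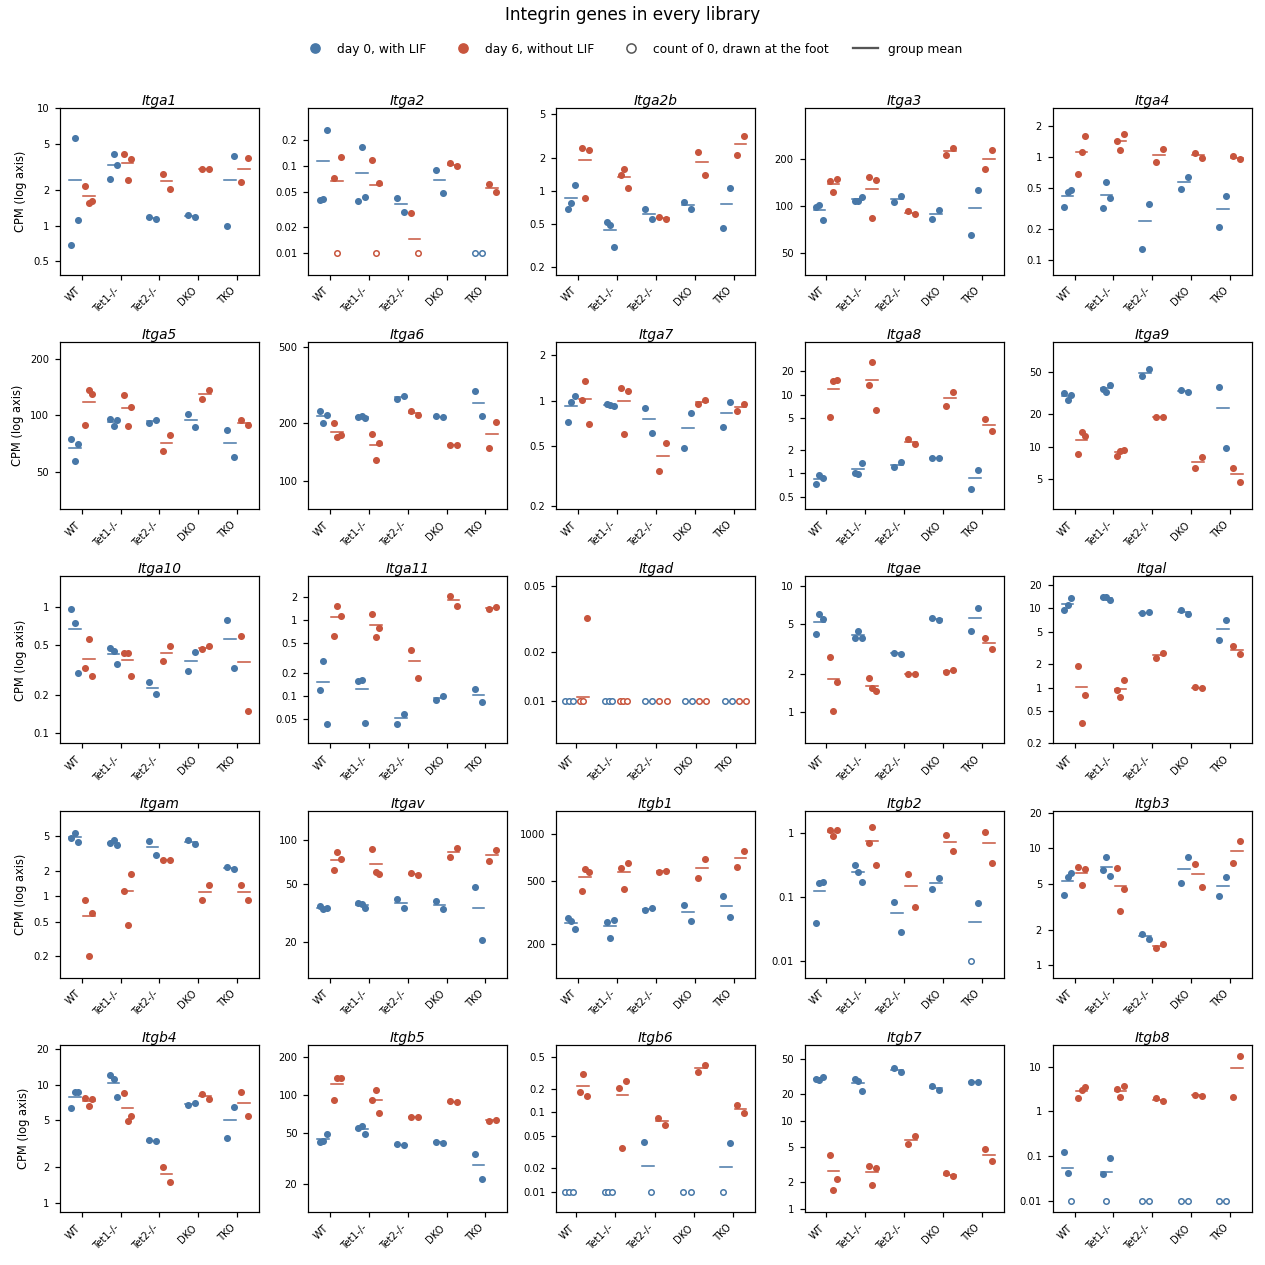
Expression of the 25 integrin genes with any count, in CPM on a log axis, by genotype, with D0 in blue, D6 in red and a bar at each group mean, where open circles are counts of 0, drawn at 0.01 CPM. Every D6 library lay under every D0 library for Itgb7, and Itgb3 and Itgb4 were lower in both Tet2-/- libraries than in all others of the same day, with Itgb4 in TKO replicate 1 at D0 (3.51 CPM) the nearest.

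The same comparison was made in each knockout, with no library shared between genotypes. In Tet1-/- 13 of 32 tested members were called higher and 6 lower at D6, against 19.9% and 11.2% of all genes. In DKO 14 were higher and 6 lower, against 18.6% and 10.6%. In TKO 15 were higher and 3 lower, against 16.8% and 8.63%. In Tet2-/- the calls numbered 4 higher and 4 lower, against 12.7% and 6.44%. The share of tested members called in either direction was thus 25% in Tet2-/-, where 19.1% of all genes were called, and 62.5% in WT, where 34% were. The median change of the laminin chains was -0.07 in Tet2-/-, and 1.29, 1.61 and 1.28 in Tet1-/-, DKO and TKO, beside medians of all genes from -0.01 to 0.01. Scaled by library totals alone, the median of all genes rose to between 0.139 and 0.207, and the share of calls that were lower among all genes fell from 36.4% to 24.9% in DKO and from 34% to 23.3% in TKO. No member called between days changed direction.

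In all 5 genotypes 3 members were called higher (Itga11, Itgb8 and Lamb1) and 3 lower (Itga9, Itgb7 and Lama1). Over all 15639 genes 7.86% were called higher and 2.78% lower in all 5. Lama1 covered 75.4 to 139 (median 101) CPM over the 12 D0 libraries and 7.81 to 28.9 (median 16.8) CPM over the 12 D6 libraries, with log2 fold changes of -2.56 ± 0.30 (Tet1-/-), -2.93 ± 0.37 (Tet2-/-), -3.25 ± 0.38 (DKO) and -2.73 ± 0.37 (TKO). Lamb1 covered 73 to 184 (median 108) CPM at D0 and 204 to 452 (median 326) CPM at D6, with changes of 1.5 ± 0.16, 1.43 ± 0.20, 1.52 ± 0.20 and 1.34 ± 0.20 in the same order. Neither gene overlapped between the days in any genotype, and without TKO D6 replicate 2 the change of Lama1 in TKO was -3.32. For Itgb7 the 12 D0 libraries lay at 21.5 to 40.1 CPM and the 12 D6 libraries at 1.66 to 6.73 CPM. Itgb8 had no count at D0 in Tet2-/-, DKO or TKO, so with 3 counts as the floor per library it was at least 16.8-fold higher at D6 in Tet2-/-, 16.2-fold in DKO and 76.4-fold in TKO. The TKO bound rested on replicate 2, which had 16.9 CPM at D6 beside 2.09 CPM in replicate 1, and was 16.8-fold without it. Itga11 in Tet2-/- had 3 counts at D0 and 19 at D6, a ratio of 5.76 with an interval of 1.70 to 30.4. Its log2 fold change was 2.41 ± 0.81 (SE; adjusted p = 0.0235, edgeR), and the adjusted p was 0.0615 with clone as a block and up to 0.2496 with 1 of the Tet2-/- libraries left out. Itga9 in TKO had the scattered D0 libraries given above, and without replicate 1 its fall was 0.81 on the log2 scale, under the 2-fold limit. In a fit of the TKO libraries alone the adjusted p of Itga9 was 0.0630 (edgeR).

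A further 7 members were called in every genotype except Tet2-/-: Itga2b, Itga8, Itgb2, Lama2, Lama4, Lama5 and Lamb3, all of them higher at D6. In a fit of the TKO libraries alone, the TKO call of Itga2b was lost (adjusted p = 0.0851, edgeR). Of all genes 5.73% had this pattern, which alone does not show that Tet2-/- differed, so the test of the difference is given with the interaction contrast. Lama5 moved in Tet2-/- from 122 and 109.9 CPM to 195 and 206 CPM, a log2 fold change of 0.80 ± 0.17 (SE; adjusted p = 0.00101, edgeR), under the 2-fold limit. Lamb3 in Tet2-/- had 2.26 and 2.1 CPM at D0 and 1.53 and 1.92 CPM at D6, with both D6 values below both D0 values and a change of -0.34 ± 0.33 (SE; adjusted p = 0.427, edgeR). In DKO Lamb3 rose from 2.89 and 3.54 CPM to 22.7 and 19.7 CPM (2.72 ± 0.31, adjusted p = 1.28e-06, edgeR), and in TKO from 2.55 and 2.18 CPM to 18.3 and 18.9 CPM (2.97 ± 0.32, adjusted p = 8.67e-07, edgeR). Itga3, a laminin receptor, was called higher in DKO (1.33 ± 0.25, adjusted p = 2.61e-04, edgeR) and TKO (1.04 ± 0.25, adjusted p = 0.00223, edgeR). Several calls between days in the knockouts did not hold when single libraries were left out, some of them for more than 1 choice of library. They were Itgb2 and Lamc3 in Tet1-/-, Itga2b, Itgb2 and Lamc3 in DKO, and Itga2b, Itga3, Itga4, Itga9, Itgav, Itgb1, Itgb2 and Itgb5 in TKO, each of which missed the adjusted p or the 2-fold limit when 1 library of its genotype was left out. With clone as a block, Tet1-/- lost Itgb2 (adjusted p = 0.178, edgeR) and Lamc3 (adjusted p = 0.193, edgeR) and DKO gained Itga1 (adjusted p = 0.0430, edgeR).

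Of the 32 tested members, 10 were called between days in no genotype, a pattern of 53.4% of all genes, namely Itga1, Itga5, Itga6, Itga7, Itga10, Itgb3, Itgb4, Lama3, Lamb2 and Lamc1. The scarce ones were the collagen receptor chains Itga1, at 0.687 to 5.6 CPM at D0 and 1.56 to 4.06 CPM at D6, and Itga10, at 0.205 to 0.969 and 0.15 to 0.584 CPM. The laminin receptor chain of muscle, Itga7, lay at 0.489 to 1.08 CPM and 0.346 to 1.36 CPM. The ranges of the days overlapped for all 3 genes. Exons of other annotated genes overlap Itga7 (Mettl7b), Itga4 (Cerkl), Itga8 (E030013I19Rik) and Itgav (Gm13684), so part of their counts may be shared.

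**Figure D4:**
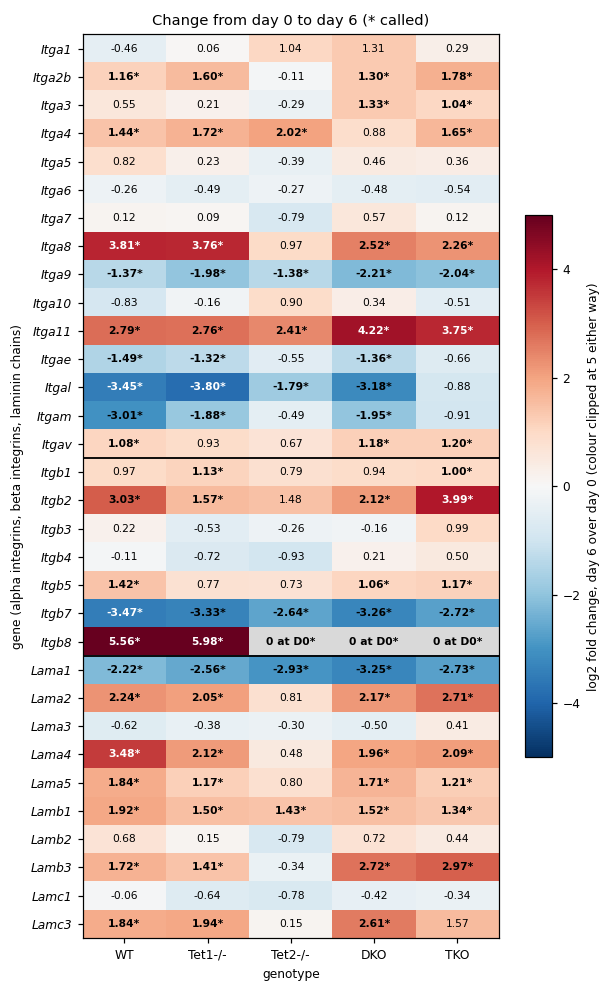
Log2 fold changes from D0 to D6 of the 32 tested members (rows) in the 5 genotypes (columns), in red where higher and blue where lower at D6, with called changes in bold and starred; grey cells had no count at D0. The Tet2-/- column held 8 starred genes and the others 18 to 20.

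Undifferentiated cells were compared next, to ask whether members differed before LIF was withdrawn. Of 28 tested members, edgeR called 0 in Tet1-/- and 0 in DKO, with 3 and 6 members at an unadjusted p under 0.05, and DESeq2 called 0 in both, where it called 0.346% and 0.761% of all genes. By edgeR, of all genes 0% were called higher and 0.00692% lower in Tet1-/-, and 0.0138% higher and 0.0208% lower in DKO. Tet2-/- differed from WT in 3 members, all lower, where 0.816% of all genes were called higher and 2.37% lower. TKO differed in 3, all lower, where 1.03% of all genes were called higher and 2.12% lower. Itgb3 (chr11:104469370-104531790), the beta chain of the vitronectin and fibrinogen receptors, had 3.96, 5.64 and 6.18 CPM in WT and 1.83 and 1.69 CPM in Tet2-/-. The 10 libraries of the other genotypes lay at 3.93 to 8.37 CPM, above both Tet2-/- libraries, and the log2 fold change was -1.60 ± 0.30 (SE; adjusted p = 0.0127, edgeR). Itgb4 (chr11:115836023-115869726), the hemidesmosome chain, had 6.34, 8.64 and 8.68 CPM in WT and 3.37 and 3.3 CPM in Tet2-/- (-1.26 ± 0.27, adjusted p = 0.0192, edgeR). Lamb3 had 5.61, 4.77 and 4.62 CPM in WT and 2.26 and 2.1 CPM in Tet2-/- (-1.22 ± 0.24, adjusted p = 0.0142, edgeR). Each of these calls was lost when either Tet2-/- library was left out (adjusted p from 0.103 to 0.161, edgeR), and those of Itgb3 and Itgb4 also without WT replicate 3 (adjusted p = 0.0535 and 0.0702, edgeR), that of Itgb4 also without WT replicate 2 (adjusted p = 0.0713, edgeR).

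In TKO at D0 the called members were Lamb3, Itgal and Itgam. Lamb3 had 2.55 and 2.18 CPM in TKO, both below all WT libraries, and a change of -1.08 ± 0.24 (SE; adjusted p = 0.0192, edgeR). Itgal had 3.97 and 7.17 CPM in TKO (-1.03 ± 0.23, adjusted p = 0.0187, edgeR) and Itgam 2.21 and 2.1 CPM (-1.18 ± 0.22, adjusted p = 0.00998, edgeR), again below all WT libraries. When the fit held only the WT and TKO libraries, none of the 3 was called (adjusted p from 0.131 to 0.194, edgeR). That fit called 1 gene higher and 2 lower of 14060, where the main fit called 149 and 306 of 14456. Lamb3 and Itgal also missed a limit when single libraries were left out, and Itgam kept its call.

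At D6, edgeR called differences from WT in Tet2-/- and not in the other genotypes. Of 33 tested members, edgeR called 2 higher and 10 lower in Tet2-/-, against 4.81% and 9.45% of all genes. By class, 4 of 10 laminin chains were lower and 0 higher, 3 of 8 beta chains lower and 1 higher, and 3 of 15 alpha chains lower and 1 higher. The median log2 fold change was -0.74 for the members, -0.86 for laminin chains and -0.03 for all genes. In Tet1-/-, DKO and TKO edgeR called 0 members, against 0% of all 15435 genes, with 6, 7 and 9 members at an unadjusted p under 0.05. DESeq2 called 0 in Tet1-/-, 0 in DKO and 3 in TKO (Itga9, Itgal and Itgb8), beside 0.246%, 1.15% and 3.06% of all genes. The smallest adjusted p of a member was 0.322 in Tet1-/-, 0.231 in DKO and 0.0643 in TKO. With 2 or 3 clones per group, a missing call does not show equal expression.

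Among the 12 called members the largest differences in Tet2-/- at D6 were those of the laminin chains Lama4 and Lamb3. Lama4 had 5.34, 11.4 and 24 CPM in WT and 1.27 and 0.732 CPM in Tet2-/-, 13.5-fold lower, a log2 fold change of -3.76 ± 0.65 (SE; adjusted p = 0.00556, edgeR), which was -3.05 without WT replicate 3. It had 8.82, 8.71 and 4.26 CPM in Tet1-/-, 8.77 and 9.99 CPM in DKO and 5.04 and 8.64 CPM in TKO, so both Tet2-/- libraries lay under all 10 others. Lamb3 had 12.2, 19.2 and 18.1 CPM in WT and 1.53 and 1.92 CPM in Tet2-/-, 9.7-fold lower (-3.28 ± 0.35, adjusted p = 0.00264, edgeR). Its levels were 15.7, 8.89 and 7.61 CPM in Tet1-/-, 22.7 and 19.7 CPM in DKO and 18.3 and 18.9 CPM in TKO, again all higher than in Tet2-/-. Lama3, the alpha chain of the same laminin as Lamb3, was not called against WT (-0.41 ± 0.38, adjusted p = 0.422, edgeR). It had 3.63, 2.17 and 2.26 CPM in WT and 2.27 and 1.81 CPM in Tet2-/-. With 5.75 and 4.86 CPM in DKO and 5.04 and 5.64 CPM in TKO, it was called lower in Tet2-/- than in both (log2 differences of -1.39 and -1.41). The call of Lama3 against DKO was lost when either Tet2-/- library was left out. Lamb2 had 23.8, 40.1 and 43.2 CPM in WT and 15.5 and 16.8 CPM in Tet2-/- (-1.16 ± 0.23, adjusted p = 0.00728, edgeR), and the 10 other libraries lay at 23.8 to 43.2 CPM. Lamc3 was low everywhere, at 0.653, 0.353 and 0.637 CPM in WT and 0.0576 and 0.105 CPM in Tet2-/- (-2.76 ± 0.63, adjusted p = 0.0122, edgeR), with the annotated Gm13441 overlapping it. Lamc1, Lamb1 and Lama5, the chains highest per length in WT at D6, had log2 fold changes of -0.31 ± 0.11, -0.84 ± 0.15 and -0.74 ± 0.14 and were not called, although both Tet2-/- libraries lay under all 10 others for Lamb1 and Lama5. Lama1, at a D6 level per length under that of Lamb2 and Lamb3 in WT, was not called either (-0.24 ± 0.43, adjusted p = 0.692, edgeR).

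Of the beta integrins, Itgb3 and Itgb4 were lower in Tet2-/- at D6 as at D0. Itgb3 had 6.9, 4.84 and 6.62 CPM in WT and 1.41 and 1.53 CPM in Tet2-/- (-2.07 ± 0.40, adjusted p = 0.00689, edgeR), beside 2.89 to 11.6 CPM over the 10 other libraries. Itgb4 had 7.73, 6.56 and 7.58 CPM in WT and 1.99 and 1.5 CPM in Tet2-/- (-2.08 ± 0.32, adjusted p = 0.00434, edgeR), beside 4.93 to 8.74 CPM. An annotated transcript, B230344G16Rik, overlaps Itgb4 on the opposite strand, and whether the counting used strand is not given in the sources used here. Itga6, which shares the hemidesmosome with Itgb4, did not follow it: Itga6 had 199.9, 169.7 and 174 CPM in WT and 233 and 222 CPM in Tet2-/- (0.31 ± 0.15, adjusted p = 0.148, edgeR). The Itga6 to Itgb4 ratio per kb was 17.9 to 20.1 in WT and 91.3 to 115.1 in Tet2-/- at D6. Itgb2 had 1.13, 0.908 and 1.11 CPM in WT and 0.23 and 0.0697 CPM in Tet2-/- (-2.75 ± 0.73, adjusted p = 0.0204, edgeR). For Itgb3, Itgb4 and Itgb2, both Tet2-/- libraries lay under all 10 other D6 libraries. The last called beta chain, Itgb7, went the other way, with 4.14, 1.66 and 2.2 CPM in WT and 5.44 and 6.73 CPM in Tet2-/- (1.16 ± 0.36, adjusted p = 0.0364, edgeR). Both Tet2-/- libraries were above the 10 others (1.66 to 4.77 CPM), but far under the D0 level.

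Of the alpha integrins, Itga8, Itga11 and Itga2b were lower and Itgam higher in Tet2-/- at D6. Itga8 had 5.15, 15 and 15.6 CPM in WT and 2.71 and 2.34 CPM in Tet2-/- (-2.25 ± 0.61, adjusted p = 0.0219, edgeR), and the 10 other libraries covered 3.49 to 26 CPM. Itga11 had 0.617, 1.51 and 1.15 CPM in WT and 0.403 and 0.174 CPM in Tet2-/- (-1.88 ± 0.51, adjusted p = 0.0222, edgeR). For Itga2b (chr11:102314611-102331436) the values were 2.47, 0.857 and 2.39 CPM in WT and 0.576 and 0.558 CPM in Tet2-/- (-1.77 ± 0.47, adjusted p = 0.0203, edgeR), with WT replicate 2 close to Tet2-/-. For each of these 3 genes both Tet2-/- libraries lay under all 10 others. Itgam (chr7:135206154-135271674) had 0.907, 0.202 and 0.637 CPM in WT and 2.65 and 2.69 CPM in Tet2-/- (2.13 ± 0.56, adjusted p = 0.0198, edgeR), above all 10 other libraries (0.202 to 1.8 CPM). The fibronectin receptor Itga5 had 89.1, 137 and 129.9 CPM in WT and 64.3 and 78.3 CPM in Tet2-/- and was not called at D6 (-0.75 ± 0.20, adjusted p = 0.0208, edgeR). The 12 calls fell to 2 without Tet2-/- replicate 1 and to 0 without replicate 2, and there were 5, 9 and 14 without WT replicate 3, 2 and 1. Without Tet2-/- replicate 1 the log2 fold changes of Itga11 and Itgb2 were -2.62 and -3.85. With a single Tet2-/- library left, that library was assumed to vary like the other groups.

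**Figure D5:**
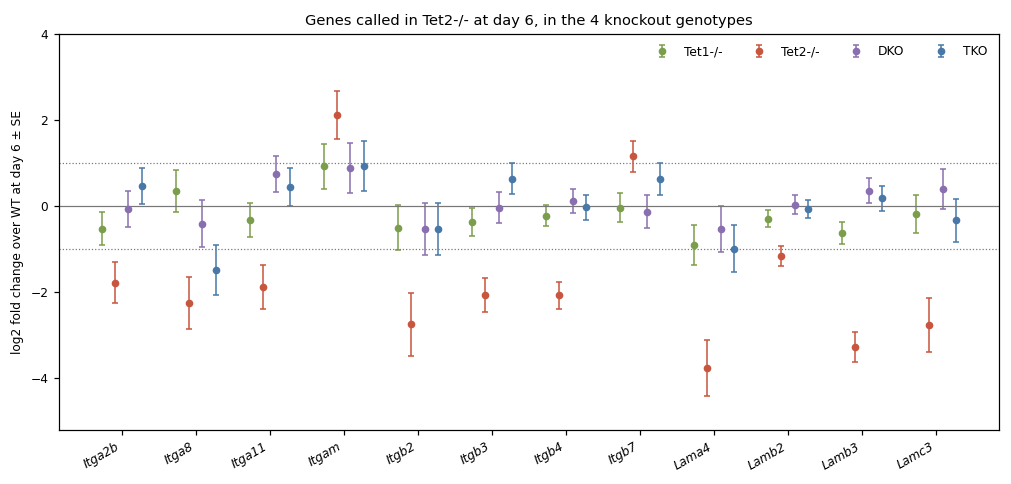
Log2 fold change over WT at D6, with its SE, of the 12 members called in Tet2-/- (red), beside Tet1-/- (green), DKO (purple) and TKO (blue), where dotted lines mark a 2-fold change. In Tet2-/- 10 genes lay under the lower line and 2, Itgam and Itgb7, above the upper one, and neither edgeR nor DESeq2 called any of these 12 genes in the other genotypes.

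Tet2-/- was also set against each other knockout at D6, comparisons that share the Tet2-/- libraries with each other and with the comparison to WT. Against Tet1-/- 1 member was called higher and 6 lower (background 1.87% and 4.48% of all genes), against DKO 1 and 11 (3.13% and 6.37%) and against TKO 1 and 11 (2.63% and 6.01%). Lamb3 had a log2 difference of -2.66 ± 0.34 (SE; adjusted p = 0.00663, edgeR) from Tet1-/-, with values of -3.64 ± 0.37 against DKO and -3.46 ± 0.37 against TKO. Lama4 gave -2.86 ± 0.63, -3.23 ± 0.66 and -2.78 ± 0.66 against Tet1-/-, DKO and TKO. Itgb4 gave -1.86 ± 0.31, -2.21 ± 0.33 and -2.05 ± 0.33 in that order. The member called higher was in each case Itga9, with 18.8 and 18.8 CPM in Tet2-/- at D6 beside 4.69 to 13.6 CPM in the 10 others, and log2 differences of 1.07 ± 0.22, 1.38 ± 0.24 and 1.73 ± 0.25. The laminin receptor chain Itga3 was lower than in DKO (-1.31 ± 0.24, adjusted p = 0.0083, edgeR) and TKO (-1.16 ± 0.24, adjusted p = 0.0156, edgeR), where it had risen between days, and was not called against WT (-0.62 ± 0.22, adjusted p = 0.0574, edgeR). The Itga6 to Itga3 ratio per kb at D6 was 1.57 to 1.60 in Tet2-/-, 0.742 to 0.880 in WT, 0.679 to 0.967 in Tet1-/-, 0.418 to 0.464 in DKO and 0.547 to 0.572 in TKO. With 1 library left out, these counts of 7, 12 and 12 became 0 to 9, 1 to 8 and 0 to 11, the lowest without a Tet2-/- library.

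Whether the change from D0 to D6 itself differed from WT was tested with an interaction contrast in a fit over all 24 libraries. A positive value means a higher D6 level relative to D0 than in WT. In Tet2-/- 2 members were called positive and 6 negative, against 3.54% and 5.13% of all genes. In TKO 2 were called, both positive, against 1.84% positive and 1.74% negative of all genes. EdgeR called 0 in Tet1-/- and 0 in DKO, with 6 and 4 members at an unadjusted p under 0.05, and 0% of all genes were called in either. DESeq2 called 0 members in both, beside 0.0767% and 0.0959% of all genes. Of the laminin chains, Lama4 differed by -3.00 ± 0.77 (SE; adjusted p = 0.0158, edgeR) in Tet2-/-, where it stood at 0.853 and 0.614 CPM at D0 and 1.27 and 0.732 CPM at D6. Lamb3 differed by -2.06 ± 0.41 (SE; adjusted p = 0.00574, edgeR). Lamb2 had a negative value too (-1.47 ± 0.35, adjusted p = 0.0109, edgeR). Lama5, which rose less than in WT, differed by -1.05 ± 0.21 (SE; adjusted p = 0.0062, edgeR). For Lamb2 the Tet2-/- libraries went from 28.6 and 27.3 CPM to 15.5 and 16.8 CPM, while the WT libraries went from 23.7, 19.6 and 23.5 CPM to 23.8, 40.1 and 43.2 CPM.

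Of the receptors, Itga8 differed between Tet2-/- and WT by -2.84 ± 0.72 (SE; adjusted p = 0.0152, edgeR) and Itga5 by -1.21 ± 0.26 (SE; adjusted p = 0.00746, edgeR). Itga5 had 74.5, 56.8 and 70.0 CPM in WT and 91.4 and 94.9 CPM in Tet2-/- at D0, so both Tet2-/- libraries were above all WT libraries at D0 and below them at D6. Itgam and Itgal fell less in Tet2-/- than in WT, by 2.52 ± 0.58 (SE; adjusted p = 0.0102, edgeR) and 1.66 ± 0.51 (SE; adjusted p = 0.0358, edgeR). In Tet2-/- Itgal had 8.83 and 8.94 CPM at D0 and 2.39 and 2.75 CPM at D6. In TKO Itgal and Itgam also fell less than in WT, by 2.57 ± 0.52 (SE; adjusted p = 0.0104, edgeR) and 2.1 ± 0.61 (SE; adjusted p = 0.0489, edgeR), with Itgal at 3.97 and 7.17 CPM at D0 and 3.38 and 2.65 CPM at D6. With clone as a block, TKO gained Lamb3 (adjusted p = 0.0170, edgeR). In a fit with only the WT and TKO libraries neither Itgal nor Itgam was called, and of all 15244 genes 3 were called positive and 0 negative. With each library left out in turn the Tet2-/- calls numbered 3 to 10, the lowest without Tet2-/- D0 replicate 1, and the TKO calls 1 to 4. Itga5 and Lamb3 kept their Tet2-/- call whichever library was left out, whereas Itgal lost it without any of 8 of the 10 WT and Tet2-/- libraries (adjusted p up to 0.117, edgeR). Itga8 lost it without any of the 4 Tet2-/- libraries (adjusted p from 0.0536 to 0.0646, edgeR), and Itgam, Lama4, Lama5 and Lamb2 each lost it without at least 1 library. Without WT D6 replicate 1 the differences of Itgal were 2.44 in Tet2-/- and 3.35 in TKO, and without WT D6 replicate 3 that of Lama4 in Tet2-/- was -2.31. In TKO the call of Itgal was kept and that of Itgam was lost without any of 8 of the 10 WT and TKO libraries (adjusted p up to 0.172, edgeR). Of the 7 members called between days in every genotype but Tet2-/-, the interaction was called for Itga8, Lama4, Lama5 and Lamb3, and not for Itga2b (-1.27 ± 0.63, adjusted p = 0.164, edgeR), Itgb2 (-1.55 ± 1.44, adjusted p = 0.477, edgeR) or Lama2 (-1.43 ± 0.76, adjusted p = 0.197, edgeR).

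Genes that act with integrins and laminins were counted in 4 lists. Of 24 tested basement membrane genes other than laminins, 13 were called higher and 1 lower between days in WT, where 20.7% of all genes were called higher and 13.3% lower. Col4a5 and Col4a6, collagen chains of specialised basement membranes, rose by 5.28 ± 0.44, adjusted p = 1.09e-08 (edgeR) and 6.83 ± 0.76, adjusted p = 4.91e-07 (edgeR) on the log2 scale, and the gene that fell, named after its value was seen, was Nid1 (nidogen), which links laminin to collagen IV (-2.18 ± 0.20, adjusted p = 4.05e-08, edgeR). In Tet2-/- at D6, 7 of the 24 were lower than in WT, beside 9.45% of all genes, and 0 were higher by edgeR or DESeq2. The lower genes included Col4a6 (-3.59 ± 0.57, adjusted p = 0.00474, edgeR), Fbln2 (-3.23 ± 0.57, adjusted p = 0.00567, edgeR), Col4a5 (-3.03 ± 0.50, adjusted p = 0.00482, edgeR) and Sparc (-1.63 ± 0.20, adjusted p = 0.0041, edgeR). At D0, 2 of 20 tested were higher in Tet2-/- (0.816% of all genes), the widespread collagen IV chains Col4a1 (1.07 ± 0.22, adjusted p = 0.0157, edgeR) and Col4a2 (1.26 ± 0.22, adjusted p = 0.0103, edgeR). Of 20 tested ligands of other integrins, 8 were lower in Tet2-/- at D6, beside the same 9.45% of all genes, and 0 higher by either tool, with Col1a1 (-4.36 ± 0.68, adjusted p = 0.00444, edgeR), Col1a2, Tnc (tenascin) and Tgfb1 among the 8, the last of which is a cytokine whose latent form binds Itgav receptors. Of 25 genes of the integrin-linked adhesion complex, 8 were higher and 2 lower between days in WT, against the 20.7% and 13.3% of all genes. In Tet2-/- at D6, 4 were lower (16% of the list, against 9.45% of all genes), among them Lims2 and Parva, which bind integrin-linked kinase, and Tgfb1i1 (log2 fold changes of -2.04, -1.82 and -1.67), and 1 higher (4%, against 4.81%), Tns1 (1.39 ± 0.22, adjusted p = 0.00443, edgeR). Of 12 tested non-integrin laminin receptors and netrins, such as dystroglycan, edgeR and DESeq2 called 0 in Tet2-/- at D6, with 8 at an unadjusted p under 0.05 (edgeR). The medians of these lists in Tet2-/- against WT at D6 were -0.55, -1.26, -0.24 and -0.57, beside -0.03 for all genes. In Tet1-/-, DKO and TKO at D6 edgeR called 0 genes of these lists, as it called 0% of all genes there, while 11, 17 and 15 had an unadjusted p under 0.05 and DESeq2 called 1, 1 and 4 of 81, all lower, where its shares of all genes were 0.246%, 1.15% and 3.06% in either direction.

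Markers of the cell types that D6 cultures can hold moved along with these results, and their calls in Tet2-/- against WT at D6 are to be read beside the 4.81% of all genes called higher and 9.45% called lower. The 12 markers of mesoderm and smooth muscle summed to 427 to 979 CPM in the WT libraries at D6 and to 150.3 to 150.5 CPM in Tet2-/-, where 7 were called lower. The 15 markers of primitive, parietal and visceral endoderm, cells that make much laminin, summed to 107 to 383 CPM in WT and 27.1 to 31.5 CPM in Tet2-/-, with 7 called lower and Ttr at 0 in Tet2-/-, beside means of 0.396 CPM in WT and 0.0216 to 0.0557 CPM in the other knockouts. The 10 trophectoderm markers summed to 769 to 1774 CPM and 189.7 to 217 CPM, with 9 lower. The 9 pluripotency markers stood at 834 to 1715 CPM in WT and 2141 to 2341 CPM in Tet2-/-, with 1 called higher (Pou5f1) and 1 lower (Dppa3). The 7 neuroectoderm markers stood at 96.6 to 129 CPM and 195 to 205 CPM, with 3 of 5 tested called higher. Most of the latter sum was Tubb3, at means of 118 CPM in Tet2-/- and 13.5 CPM in WT, which had been 249 and 174 CPM at D0. Nes went the other way, at 71.0 CPM in Tet2-/- and 98.5 CPM in WT at D6. The 13 endothelial and blood markers summed to 87.1 to 157 CPM in WT and 59.2 to 67.3 CPM in Tet2-/-, with 3 of 9 tested lower. Their members moved in both directions. Kdr averaged 73.4 CPM in WT and 0.819 CPM in Tet2-/-, whereas Pecam1 averaged 30.4 and 53.3 CPM, after 101 and 97.0 CPM at D0. Pf4 and Gp9, which define platelets as Itga2b does, were at or near 0 in every genotype, at means of up to 0.0430 CPM at D0 and 0.0289 CPM at D6, while the platelet marker Gp1bb averaged 0.528 CPM in WT and 0.237 CPM in Tet2-/- at D6 (-1.12 ± 0.68, adjusted p = 0.23, edgeR). In TKO the endoderm markers summed to 44 to 67.7 CPM at D6 and in DKO to 81.3 to 103 CPM. In the same order, the mesoderm markers summed to 447 to 952 and 635 to 854 CPM, and the trophectoderm markers to 695 to 962 and 911 to 1137 CPM. The pluripotency markers stood at 1706 to 1732 and 1229 to 1265 CPM, and the neuroectoderm markers at 83.3 to 155 and 116 to 148 CPM. The endothelial and blood markers stood at 69.35 to 89.8 and 34.2 to 45.4 CPM. Lamb3 had 18.3 and 18.9 CPM in TKO and 22.7 and 19.7 CPM in DKO beside 12.2, 19.2 and 18.1 CPM in WT. The part of these cell types in the differences of integrins and laminins was not tested.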

How the data were processed

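Polyadenylated RNA with added ERCC spike-ins was sequenced in pairs of reads in 24 libraries. Per the labels and methods, the authors aligned reads to mm9 with STAR (2.5.1), and the deposited tables, 1 per day, hold raw read counts per RefSeq transcript row under a gene symbol. Whether counting used strand is not given in the sources used here. For the authors' own fits the submitters' processing notes name DESeq2 and the study's methods DESeq.

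The first row of each of 22926 symbols was used. Of 31928 rows, 4911 symbols had more than 1, among them 9 members. The rule for members matched 37 symbols, of which 1 is not reported here. Library totals, 18400463 to 37290208 counts, set the precision. Counts were fitted with edgeR (4.0.16, R 4.3.3) by the quasi-likelihood test, with TMM factors (0.918 to 1.1), filterByExpr (minimum count 10) and Benjamini-Hochberg adjustment, in separate fits for D0 (14456 genes), D6 (15435) and both days together (15639, for day and interaction contrasts). Calls needed an adjusted p under 0.05 and a 2-fold change. A transcript length in kb from the annotation scaled CPM for comparisons between genes. The fits were tested on simulated data. Gene positions came from the GENCODE annotation of the mm9 build, and promoters from RefSeq.

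The members and gene lists were chosen with earlier results of these data known. Values in every library were to be given for members called between genotypes or in the interaction and, of the others, for up to 4 per class with the largest change between days in WT, and list genes were named where called, up to 4 per list and comparison by size. Replicate pairs differed by more than sampling noise (chi-square per degree of freedom 8.02 to 97.6). The study isolated clones individually and treated them as biological replicates. Whether they were cultured on separate occasions is not given in the sources used here, so p-values measure the spread between these libraries. Clones recur between days, and deviations from group means of the same clone at both days correlated at 0.0813 to 0.193 over 11 pairs, 10 of them over 0.1. Day comparisons were therefore repeated with clone as a block. Alternatives were DESeq2 (1.42.0), its size factors, library totals, no count filter, the row with the largest count, only the groups compared, blocks, and each library left out.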

Additional observations from a re-analysis of the deposited data

Results flagged for a closer look

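The change from D0 to D6 differed between Tet2-/- and WT, by the interaction contrast (edgeR), for 8 members. The difference of the log2 fold changes was -1.21 ± 0.26 (SE; adjusted p = 0.00746, edgeR) for Itga5, -2.84 ± 0.72 (SE; adjusted p = 0.0152, edgeR) for Itga8, 1.66 ± 0.51 (SE; adjusted p = 0.0358, edgeR) for Itgal and 2.52 ± 0.58 (SE; adjusted p = 0.0102, edgeR) for Itgam. It was -3.00 ± 0.77 (SE; adjusted p = 0.0158, edgeR) for Lama4, -1.05 ± 0.21 (SE; adjusted p = 0.0062, edgeR) for Lama5, -1.47 ± 0.35 (SE; adjusted p = 0.0109, edgeR) for Lamb2 and -2.06 ± 0.41 (SE; adjusted p = 0.00574, edgeR) for Lamb3. The call of Itgal was lost without any of 8 of the 10 WT and Tet2-/- libraries, with adjusted p up to 0.117 (edgeR), and in the fit of only the groups compared (adjusted p = 0.050014, edgeR). That of Itga8 was lost without any of the 4 Tet2-/- libraries (adjusted p from 0.0536 to 0.0646, edgeR), and Itgam, Lama4, Lama5 and Lamb2 were each lost without at least 1 library. Itga5 and Lamb3 kept their calls whichever library was left out.

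The same contrast differed between TKO and WT for 2 members, Itgal with 2.57 ± 0.52 (SE; adjusted p = 0.0104, edgeR) and Itgam with 2.1 ± 0.61 (SE; adjusted p = 0.0489, edgeR). The call of Itgam in TKO was lost without any of 8 of the 10 WT and TKO libraries, with adjusted p up to 0.172 (edgeR). In the fit of only the WT and TKO libraries both were lost, with adjusted p = 0.155 for Itgal and 0.177 for Itgam (edgeR). That fit called 3 genes positive and 0 negative of 15244.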

How the results depend on the processing

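Over the 144 calls of a member in a comparison, 1747 values were recomputed under the alternatives. Of these, 1528 kept their call and direction, 214 kept their direction but missed a limit, 0 changed direction and 5 could not be had because the gene was filtered out. The row with the largest count changed no call. Members called in TKO against WT at D0 numbered 2 instead of 3 with the replicate number as a block and 0 when only the groups compared were fitted. The latter fit called 1 gene higher and 2 lower of 14060. In TKO against WT at D6, DESeq2 called 3 where edgeR called 0. In Tet2-/- against Tet1-/-, DESeq2 called 12 and the fit of only the groups compared 5, instead of 7. In Tet2-/- against DKO, only the groups compared gave 19 instead of 12. For the interaction in TKO, only the groups compared gave 0 and clone as a block 3, instead of 2. Between days in TKO the fit of only the groups compared lost Itga2b, Itga3, Itga4, Itga9 and Itgav (adjusted p = 0.0630 to 0.105, edgeR). The causes were not tested.

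With single libraries left out, members called in Tet2-/- ranged from 0 to 3 against WT at D0, 0 to 14 against WT at D6, 0 to 9 against Tet1-/-, 1 to 8 against DKO and 0 to 11 against TKO, and from 3 to 10 for the interaction. In TKO they ranged from 1 to 4 at D0, 0 to 5 at D6 and 1 to 4 for the interaction. With the replicate number as a block within a day, calls in Tet2-/- at D6 numbered 12 against WT, 8 against Tet1-/-, 11 against DKO and 10 against TKO, and 3 at D0. Libraries of the same number and day shared only a number, with correlations of deviations from -0.377 to 0.312 over 42 pairs. Clone as a block changed the member calls named in the report and no other. A count of 3 was worth up to 0.163 CPM, which limits Itgb2, Itgb8, Itga11 and Lamc3 at D0.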
